A study of Mus musculus with 16 samples.

Results

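The 3 arrays of GABAergic cells sorted from the cortex of newborn mice were examined, out of 16 arrays in the series, and were chosen by their titles. The reporter mice were GAD67-eGFP on a C57Bl/6 background, in which green fluorescence marks cells using glutamate decarboxylase 67, and were taken at postnatal day 1. Brains of 6 mice of this age, whose genotype the labels do not repeat, were dissected into cortex, striatum, olfactory bulb and cerebellum, and fluorescent cells were sorted from each region for 3 arrays. The other 4 arrays held cells sorted from whole brains of 4 mice. On each array the amplified cDNA of sorted cells (Cy5) was set against that of total brain RNA from 4 age-matched mice, the common reference (Cy3). The labels call the arrays biological replicates. They do not say whether regional samples came from the same animals, or whether the reporter replaced a Gad1 allele. Sorted cells were thus set against unsorted brain, not against cells lacking eGFP.

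Cortical GABAergic neurons are not born in the cortex. They arise in the medial and caudal ganglionic eminences of the ventral forebrain, under Dlx and related homeobox factors, and migrate tangentially into the cortical plate before and around birth. Their subtypes are later told apart by peptides and calcium-binding proteins such as somatostatin, neuropeptide Y and calretinin, many of which rise after birth. Their activity also helps to set how many of them survive the first weeks.

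A value below is the log2 ratio of sorted cells to reference, so that 1 is a 2-fold difference and a negative value means more signal in total brain. On the 3 cortex arrays the median spot signal was 150.9, 255.5 and 250 units in the sorted channel, and 78.1% to 86.4% of spots passed the scanner's background test there. Array 1 was thus the dimmest of the 3. Pearson's r between pairs of cortex arrays was 0.964 to 0.973, taken over genes, which do not count as replicates. It was 0.891 to 0.927 with striatum and 0.694 to 0.751 with whole-brain cells. The median SD of a gene over the 3 arrays was 0.0985, and errors given as ± are standard errors of limma's fit with n = 3 arrays unless fewer are stated.

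Of 27261 genes tested, 10352 (38%) were called higher in the sorted cortex cells and 8595 (31.5%) lower, by limma with a Benjamini-Hochberg adjusted p under 0.05. With a difference of at least 2-fold, 1646 (6.04%) were called higher and 2146 (7.87%) lower. In either direction 69.5% of genes were called, so a call by itself is common here, and the size of a ratio carries more. Counts of list members against the reference are to be read beside the shares of 38% higher and 31.5% lower. The test compares the mean ratio with 0, so it leaves out the spread of the reference itself, and the dyes were not swapped. In such bulk samples, fewer cells of a type and less RNA per cell cannot be told apart. The median of all genes was 0.04. On the whole-brain arrays, which enter the fit only through their spread, Gad1 lay below the reference (mean -1.51), against their label. A fit of the 12 regional arrays alone gave 10526 genes higher and 8738 lower in cortex cells and changed no call of a gene named here.

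The labelled cell type was first checked against its defining genes. Gad1, the gene of the enzyme behind the reporter, was at 0.74, 0.93 and 0.70 on the 3 arrays, a mean of 0.79 ± 0.09 (adjusted p = 3.31e-07). Gad2, the other glutamate decarboxylase, was at 1.74, 1.91 and 1.82, a mean of 1.82 ± 0.08. Both enzymes were above the reference on every cortex array, Gad2 by more. Slc32a1, which loads GABA into vesicles, was at 0.49 ± 0.10 from 2 measured arrays. Slc6a11, the uptake carrier found mainly on astrocytes, was lower at -1.87, -1.75 and -1.73. Abat, which degrades GABA, was at -0.09 ± 0.08 from 2 measured arrays and was not called. In this list of 6 genes, 4 were thus higher and 1 lower, with a median of 0.48.

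Forebrain GABAergic transcription factors stood highest among the lists. Of 9 tested, 8 were higher and 1 lower, 6 of them higher by at least 2-fold, with a median of 2.49. Dlx6os1, a noncoding RNA transcribed across the Dlx5 and Dlx6 locus, had the highest ratio of all genes tested, at 3.84, 3.76 and 3.80. Its mean of 3.80 ± 0.07 is 13.9-fold (adjusted p = 2.15e-18). Dlx1 was at 3.53, 3.53 and 3.34, and Dlx6 at 2.83, 2.67 and 2.75. Dlx5 was at 2.49 ± 0.08 and Dlx2 at 1.70 ± 0.09, so the 4 Dlx homeobox genes measured all lay above 1.5 on each array. Sp8, a zinc finger factor of the dorsal part of the lateral ganglionic eminence and of caudal-derived interneurons, was at 2.63, 2.86 and 2.74. Gsx2, a factor of ventral progenitors, was at 0.22 ± 0.07, with 0.02 on array 2; the call of Gsx2 was lost without array 1 or array 3. Sp9 was not analysed here. A second transcript of the locus, Dlx6os2, was also high, at 2.89 ± 0.16.

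**Figure D1:**
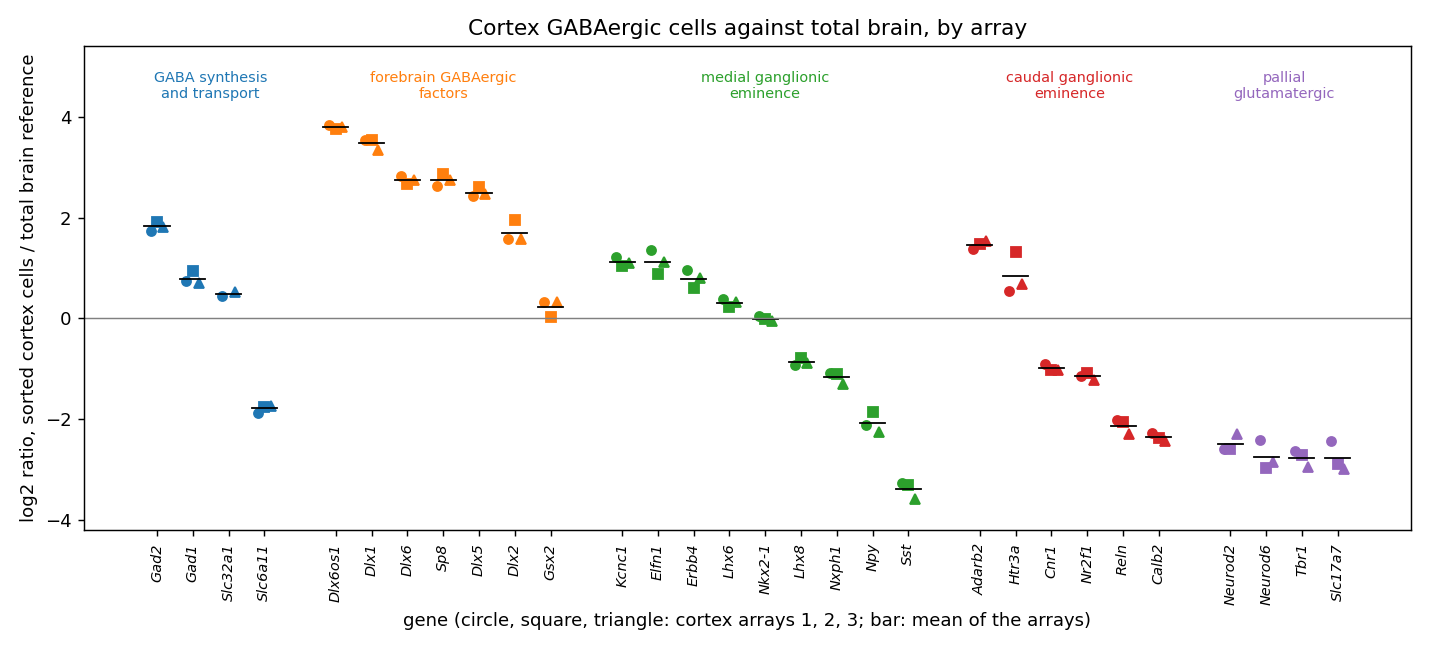
Log2 ratio of sorted cortex cells to total brain (vertical axis) for genes of 5 lists, with 1 symbol per cortex array and a bar at their mean. The Dlx genes and Sp8 lie above 1.5, the 4 plotted genes of pallial glutamatergic neurons below -2, and the interneuron subtype lists on both sides of 0.

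The promoter of Dlx6os1, the gene with the highest ratio, is shown because homeodomain proteins such as the Dlx factors bind TAATTA cores. RefSeq (GRCm38.p6) lists 2 starts. The 250 bases before the one at chr6:6869534-6869783 on the minus strand are given 5′ to 3′, with TAATTA, which reads the same on both strands, in capitals.
Dlx6os1: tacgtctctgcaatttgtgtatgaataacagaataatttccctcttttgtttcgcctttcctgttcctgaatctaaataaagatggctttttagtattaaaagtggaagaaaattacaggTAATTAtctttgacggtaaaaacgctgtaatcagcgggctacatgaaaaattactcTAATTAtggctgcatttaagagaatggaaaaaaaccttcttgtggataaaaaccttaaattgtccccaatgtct
The letters occur 2 times here, with first bases 130 and 74 bases before the start, and 1 time before the other start. Of 32851 such promoter entries, 1590 (4.84%) hold the letters within 250 bases. A match is a description of the sequence and not evidence of a site.

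Genes of cortical interneuron subtypes were called in both directions. Of 13 genes of medial ganglionic eminence interneurons tested, 5 were higher and 6 lower, and of 13 caudal ones 3 were higher and 9 lower. Over all genes tested, 38% were higher and 31.5% lower, so calls in both directions are not particular to these genes. Kcnc1, a fast potassium channel of later parvalbumin cells, was at 1.12 ± 0.07, and Elfn1, a synaptic organiser of interneurons, at 1.35, 0.88 and 1.11. Erbb4, the neuregulin receptor of migrating interneurons, was at 0.95, 0.61 and 0.81, with 4 of 4 probes positive. Lhx6, the factor that marks medial-derived interneurons, was only slightly above the reference, at 0.38, 0.22 and 0.33 (adjusted p = 0.000352). Nkx2-1, which specifies the medial eminence and is shut off in cells bound for cortex, was at -0.01 ± 0.10 and was not called. Lhx8, which marks medial-derived cells that stay in the ventral forebrain, was at -0.87 ± 0.09, and Nxph1, a neurexin ligand of interneurons, at -1.16 ± 0.09.

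Among the peptides of these subtypes, Sst and Npy were far below total brain. Sst, somatostatin, was at -3.26, -3.30 and -3.57, which is 10.4-fold lower on average (adjusted p = 7.3e-17). Npy, neuropeptide Y, was at -2.12, -1.86 and -2.25. Both were well above background in both channels on all 3 arrays, so these ratios rest on measured signal. Of 16 neuropeptide genes tested, 5 were higher and 10 lower. Penk, proenkephalin, was at -1.87 ± 0.08. Cort, the somatostatin relative cortistatin, was at 0.43 ± 0.07, and Tac2, neurokinin B, at 0.41 ± 0.07. Vip was not well above background in either channel on any cortex array, and Pvalb did not pass the filter on dim genes.

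Among caudal-lineage genes, Adarb2, an RNA-editing family member of caudal-derived interneurons, was at 1.38, 1.47 and 1.53. Htr3a, the ionotropic serotonin receptor of the same lineage, was at 0.54, 1.31 and 0.68, the widest spread among the genes named here, with array 2 highest. Calb2, calretinin, was at -2.28, -2.36 and -2.43, and Reln, the extracellular protein of Cajal-Retzius cells and some interneurons, at -2.02, -2.06 and -2.29. Nr2f1, the nuclear receptor COUP-TF1, was at -1.15 ± 0.08, and Cnr1, the CB1 cannabinoid receptor, at -0.99 ± 0.07. The caudal list had a median of -0.99.

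Markers of pallial glutamatergic neurons, the main other neurons of the dissected tissue, were mostly lower. Of 20 tested, 2 were higher and 15 lower, 9 by at least 2-fold, and the list median was -0.71. Tbr1, a factor of deep-layer neurons, was at -2.62, -2.70 and -2.95, Neurod6 at -2.41, -2.97 and -2.85, and Neurod2 at -2.58, -2.58 and -2.30, the last of which, like Neurod6, is a helix-loop-helix factor of pyramidal neurons. Slc17a7, the vesicular glutamate transporter, was at -2.76 ± 0.16, and its sorted signal was clear of background on 1 of the 3 arrays. Pou3f2, a POU factor of migrating neurons, was higher at 1.19 ± 0.07. Lhx2, a selector gene of cortical progenitors, was lower at -2.12 ± 0.07.

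Genes of other forebrain GABAergic cells were also called in both directions. Of 18 genes of striatal projection neurons tested, 9 were higher and 4 lower, with 0 higher and 1 lower by at least 2-fold. The 14 olfactory bulb interneuron genes held 8 higher and 6 lower, with 2 and 3 of these by at least 2-fold, and ran from -1.46 to 1.70. Over all genes tested, 38% were higher and 31.5% lower. Meis2, a homeobox factor of the lateral ganglionic eminence, was at 0.99 ± 0.07, and Isl1, a factor of striatonigral neurons, at 0.59 ± 0.09. Etv1, an ETS factor of olfactory bulb interneurons, was at 1.69, 1.81 and 1.61, above the reference on every array. Among Sox factors, 7 of 15 were higher and 4 lower, with Sox7, an endothelial family member, at 1.79 ± 0.09, Sox2, of neural progenitors, at 1.67 ± 0.07 and Sox11, of immature neurons, at 1.66 ± 0.08. All 6 probes of Sox11 were positive, and the lowest of the Sox factors was at -1.62. The Sox2 overlapping transcript Sox2ot was at 2.41 ± 0.07. Of 20 Notch pathway genes, 10 were higher and 9 lower, with members from -2.29 to 1.25. Among the higher ones were Hes5, a target of the pathway, at 0.92 ± 0.08 and Notch1, a receptor, at 0.41 ± 0.06.

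General markers of differentiated neurons were lower than in total brain. Of 16 genes of postmitotic neurons tested, 1 was higher and 14 lower, 12 by at least 2-fold, and the median of -1.43 was the lowest of the 34 lists. Gap43, a growth cone protein, was at -3.82, -4.04 and -4.06. Tubb3, neuronal tubulin, was at -1.30 ± 0.09 and Snap25, of the vesicle fusion machinery, at -1.26 ± 0.06, with 3 of 3 probes negative. Map2, a dendritic microtubule protein, was the 1 higher member, at 0.26 ± 0.07. Of 19 cell cycle genes, 4 were higher and 9 lower, with a median of -0.10 and members from -1.02 to 0.85. Mki67, the proliferation antigen, was among the higher ones, at 0.80, 0.81 and 0.81 on the arrays. Housekeeping genes did not stay at 0 either, with 3 higher and 7 lower of 10 and a median of -0.90. Actb, cytoplasmic actin, was at 1.38 ± 0.08. The part of amplification in these ratios was not tested.

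The remaining lists were mixed or low, beside 38% higher and 31.5% lower over all genes tested. Of 26 genes of synaptic adhesion and scaffold, 6 were higher and 18 lower (median -0.66), of 32 voltage-gated channels 9 and 16, and of 6 chloride cotransporters 2 and 3. Of 13 telencephalic patterning genes 5 were higher and 5 lower, of 24 midbrain and hindbrain patterning genes 5 and 10, and of 27 Hox genes 9 and 6. Of 17 genes of thalamus and hypothalamus 2 were higher and 11 lower (median -0.57), and of 14 genes of monoamine and acetylcholine neurons 3 and 7. Of 7 erythroid genes 3 were higher and 1 lower, and of 14 genes of meninges and choroid plexus 1 and 8 (median -1.28).

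Non-neuronal markers were mostly lower, as measured over whole lists. Among 20 genes typical of astrocytes and radial glia, 4 were higher and 13 lower, with medians of -1.09 for this list, -1.18 for 12 oligodendrocyte lineage genes, -0.73 for 15 microglial genes and -0.89 for 14 endothelial and mural genes. Gja1, the astrocytic connexin, was at -3.21, -3.61 and -3.83, and Aldoc, an astrocytic aldolase, at -3.20, -3.27 and -3.42. Olig1, a factor of oligodendrocyte precursors, was at -2.39 ± 0.08 and Cldn5, of endothelial tight junctions, at -2.05 ± 0.10. The sorted signal of all 4 was clear of background on each cortex array. Igf2, a growth factor of meninges and choroid plexus, was at -4.24, -4.40 and -4.59, and Ptgds, a prostaglandin synthase of the meninges, at -4.16, -4.41 and -4.33. C1qb, a complement subunit of microglia, went the other way at 0.36 ± 0.08.

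**Figure D2:**
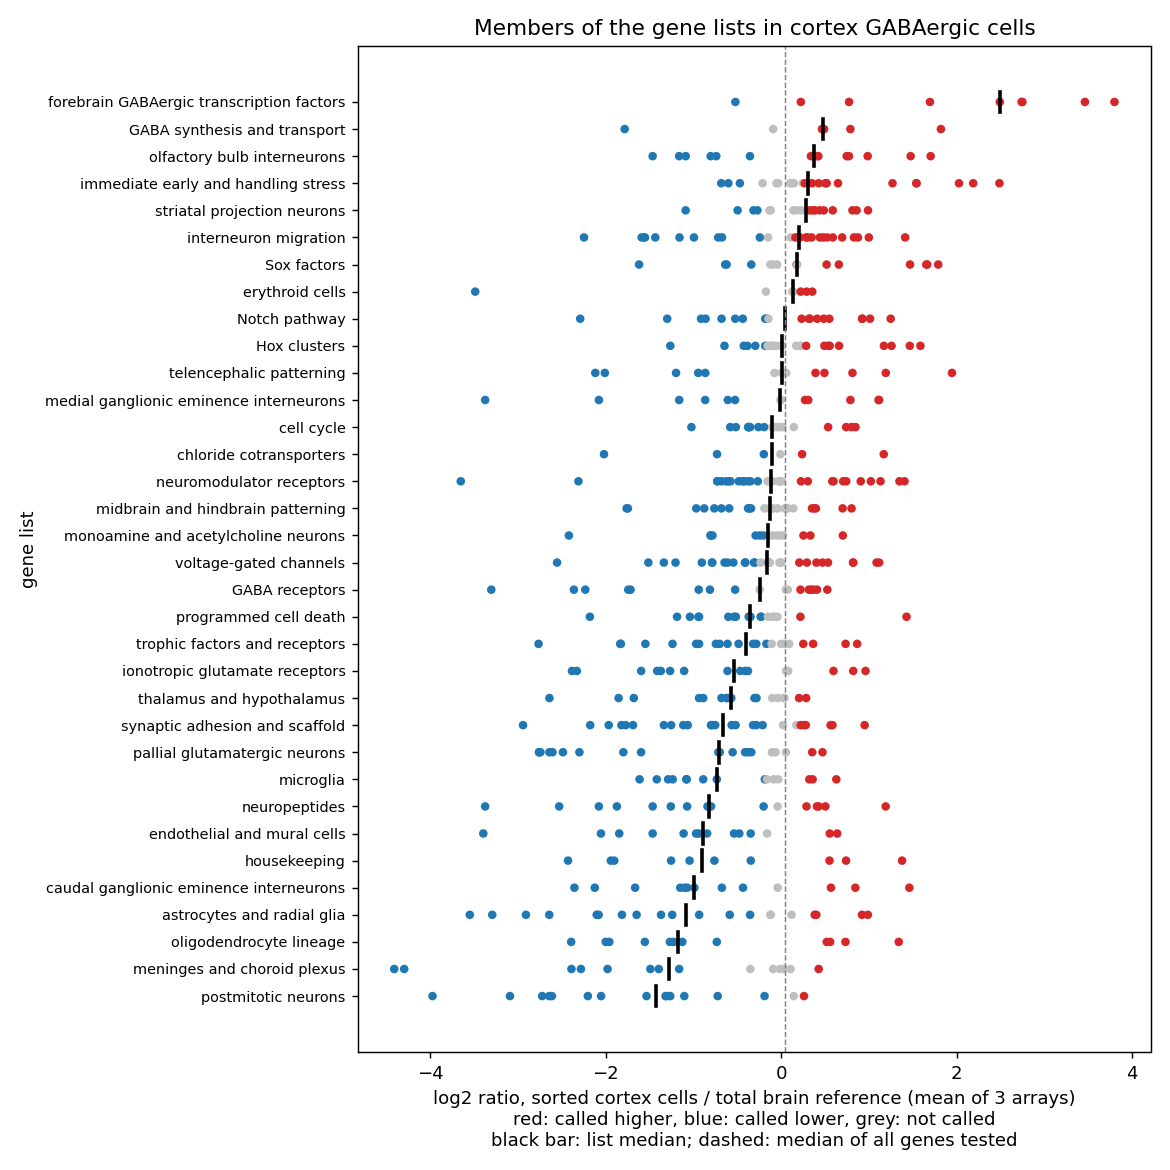
Each row is a gene list and each point a member, placed by its mean log2 ratio over the 3 cortex arrays, red where called higher, blue where called lower and grey where not called. The black bars are list medians, from 2.49 for forebrain GABAergic factors to -1.43 for postmitotic neurons, and the dashed line marks the median of all genes, 0.04.

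The transmitter receptors of these cells were considered next. Of 17 GABA receptor genes tested, 6 were higher and 8 lower, and none was higher by 2-fold. Gabra2, an alpha subunit that dominates in newborn forebrain, was at -3.15, -3.28 and -3.49, Gabra5, of extrasynaptic receptors, at -2.26, -2.17 and -2.27, and Gabra3 at -1.72 ± 0.07. All probes of these alpha subunits were negative. Gabbr2, of the metabotropic GABA B receptor, was at -2.36 ± 0.11. Gabrd, the delta subunit of extrasynaptic receptors, was at 0.55, 0.41 and 0.62, and Gabrq, the theta subunit, at 0.41 ± 0.06. Slc12a5, the chloride exporter KCC2 that turns GABA inhibitory during maturation, was at -2.02, -1.97 and -2.07, a narrow range 4.06-fold below total brain.

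Among 16 ionotropic glutamate receptor genes, 3 were higher and 11 lower. Grin1, the obligatory NMDA receptor subunit, was at -1.27 ± 0.07, Gria1, an AMPA receptor subunit, at -1.11 ± 0.08, and Grik1, a kainate receptor subunit, at -2.33 ± 0.10. Neuromodulator receptors divided more evenly, with 11 higher and 14 lower of 32, beside 38% and 31.5% of all genes tested. Htr2a, a serotonin receptor, was at 1.57, 1.18 and 1.47, Adra1a, the alpha-1A adrenergic receptor, at 1.18, 1.14 and 1.08, and Chrm3, a muscarinic receptor, at 0.88, 0.76 and 0.59. Each of these 3 was above the reference on every array. Chrna4, a nicotinic receptor subunit, was at -3.48, -3.78 and -3.71, and Adra2a, an inhibitory adrenergic receptor, at -2.31 ± 0.11. The other probe of Chrna4 was at -0.46, and that of Adra1a at 0.22.

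Migration, trophic and death genes completed the lists. Of 28 genes of interneuron migration tested, 16 were higher and 10 lower. Epha4, an ephrin receptor that guides interneurons, was at 0.93, 0.88 and 0.82, Robo1, the Slit receptor that keeps interneurons out of the striatum, at 0.46, 0.53 and 0.46, Dcx, the microtubule protein doublecortin, at 0.44 ± 0.08, and Ackr3, a chemokine receptor of migrating interneurons, at 0.29 ± 0.08. Plxna1, a semaphorin co-receptor, was at -2.21, -2.25 and -2.28, Nrp1, its neuropilin partner, at -1.59 ± 0.08, Efnb3, a midline ephrin, at -1.55 ± 0.06, and Epha5, another ephrin receptor, at -1.44 ± 0.09. Higher and lower members were thus found among receptors of 1 family. Of 22 trophic factor and receptor genes, 4 were higher and 14 lower, with Igf1r, the IGF1 receptor, at 0.37 ± 0.06, Kit, the stem cell factor receptor, at -0.97 ± 0.07 and Ntrk3, the neurotrophin-3 receptor, at -1.24 ± 0.06. Of 20 genes of programmed cell death, 2 were higher and 14 lower. Bcl2, which blocks apoptosis, was at 1.59, 1.30 and 1.40, with 2 of its 3 probes positive. Bid and Bax, which promote it, were at -2.18 ± 0.08 and -1.19 ± 0.08.

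Most of the remaining genes with the highest and lowest ratios lay outside these lists. Tiam2, a Rac exchange factor, was at 3.28, 3.46 and 3.43, Fgb, the fibrinogen beta chain, at 3.34, 2.82 and 3.10, and Malat1, an abundant nuclear noncoding RNA, at 3.09, 2.64 and 2.84. Btg1, an antiproliferative gene, was at 2.56 ± 0.07, Ccdc91 at 2.51 ± 0.09, 1700018A04Rik at 2.46 ± 0.13 and Igfbpl1, of newborn neurons, at 2.45 ± 0.07. Array 1 was the highest of the 3 for Fgb and Malat1 and the lowest for Tiam2. At the other end, Snhg11, a neuronal noncoding RNA, was at -4.40, -4.83 and -4.72, the lowest of all genes tested and 25.1-fold below total brain. Cwc22, a splicing factor, followed at -4.14, -4.41 and -4.44. Ptprk, a receptor phosphatase, was at -3.85 ± 0.09, Nwd2 at -3.78 ± 0.12, Apod, an apolipoprotein, at -3.65 ± 0.08, Slc24a3, a sodium-calcium exchanger, at -3.53 ± 0.08, and Dbi, the diazepam binding inhibitor of glia, at -3.51 ± 0.09. Hba-a1, alpha globin, was at -3.49 ± 0.11 and Vtn, vitronectin of mural cells, at -3.40 ± 0.09, each the lowest member of its list. These ratios rest on the brightest probe of each gene, and other probes could lie far nearer 0. The probe nearest 0 was at 0.01 for Ccdc91, 1.385 for Igfbpl1, -1.48 for Snhg11, -0.645 for Ptprk and -0.57 for Nwd2.

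Immediate early genes, whose transcripts rise within minutes of activity or tissue handling, were high in the sorted cells. Of 22 genes in the list, 12 were higher and 3 lower, 6 of them higher by at least 2-fold, with a median of 0.31. Fos was at 2.32, 2.68 and 2.47, Jun at 2.12, 2.29 and 2.16, Egr1 at 2.02, 2.14 and 1.92, and Dusp1, a phosphatase that ends MAP kinase signals, at 1.43, 1.60 and 1.61. All 4 were above the reference on every array, with little spread. The labels mention dissociation and sorting for the cells but not for the reference, so handling and cell type cannot be told apart here. The promoters of 3 of these genes are shown because the half-site TGACG, bound by CREB and ATF proteins after a calcium or cAMP signal, is a known element of several of them. The letters were searched on both strands (TGACG or CGTCA) in the 250 bases before each start, from RefSeq, GRCm38.p6, and are in capitals; overlapping matches run together. Fos lies at chr12:85473640-85473889 on the plus strand, Jun at chr4:95052223-95052472 on the minus strand and Dusp1 at chr17:26508473-26508722 on the minus strand.
Fos: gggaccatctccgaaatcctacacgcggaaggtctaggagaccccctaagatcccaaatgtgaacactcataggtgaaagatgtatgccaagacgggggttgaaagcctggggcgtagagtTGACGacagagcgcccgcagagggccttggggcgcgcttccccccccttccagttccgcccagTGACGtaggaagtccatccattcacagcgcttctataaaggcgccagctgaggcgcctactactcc
Jun: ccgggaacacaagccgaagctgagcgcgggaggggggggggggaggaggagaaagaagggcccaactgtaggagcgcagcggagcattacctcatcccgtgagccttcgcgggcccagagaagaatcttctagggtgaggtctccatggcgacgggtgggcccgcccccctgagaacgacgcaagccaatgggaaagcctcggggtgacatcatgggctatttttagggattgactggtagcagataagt
Dusp1: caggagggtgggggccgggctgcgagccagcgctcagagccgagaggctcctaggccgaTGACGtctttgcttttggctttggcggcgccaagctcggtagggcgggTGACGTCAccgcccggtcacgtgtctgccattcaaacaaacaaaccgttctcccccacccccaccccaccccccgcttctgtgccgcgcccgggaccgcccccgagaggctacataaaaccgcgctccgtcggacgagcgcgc
The letters occur 2 times before Fos and 3 times before Dusp1, and not in this window before Jun. Of 32851 promoter entries, 5836 (17.8%) hold them. The motif was chosen after the ratios and these sequences had been seen.

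Cortex cells were then compared with the cells of the other dissected regions, as differences between ratios to the common reference. Cortex and striatum differed at 2433 genes called higher in cortex (8.92%) and 2691 called lower (9.87%), of which 37 (0.136%) and 65 (0.238%) reached 2-fold. Against olfactory bulb, 2229 (8.18%) were higher and 2248 (8.25%) lower, with 41 (0.15%) and 55 (0.202%) at 2-fold. Against cerebellum, 2937 (10.8%) were higher and 4158 (15.3%) lower. A gene was called apart in cortex when it differed the same way from striatum, olfactory bulb and cerebellum, with the largest of the 3 adjusted p values under 0.05. By this rule 117 genes (0.429%) stood above each other region and 151 (0.554%) below, and only 1 of them, Fabp7, by at least 2-fold (0.00367% of genes tested). Among these called genes, 109 above (0.4% of genes tested) and 148 below (0.543%) had no cortex array that overlapped the 9 other regional arrays. Without array 1 the counts apart were 41 and 98, and without array 3 they were 49 and 83. The striatum count of 5124 fell to 2662 without array 1 and 2627 without array 3, and the bulb count of 4477 to 2957 and 2747.

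The reference channel was alike on most genes but not on all. Reference signals of the cortex arrays correlated with those of striatum arrays at r of 0.985 to 0.99, and of 27261 genes 55 were at least 2-fold lower and 12 at least 2-fold higher there than on striatum arrays. The counts were 2 and 63 against olfactory bulb and 63 and 21 against cerebellum arrays. Some transcripts known from lung epithelium were among those that differed. Sftpc, surfactant protein C, read 72.1, 84.2 and 102 units in the reference channel of the cortex arrays and 3000, 3810 and 3380 on the striatum arrays. In the sorted channel it read 112, 171 and 193 on cortex and 1410, 2220 and 3070 on striatum arrays. The groups did not overlap in either channel. Summed over a list of 14 lung genes, chosen after the data were seen, the reference channel read 3220 to 4170 on cortex, 2410 to 3390 on olfactory bulb, 10700 to 13300 on striatum and 11500 to 15000 on cerebellum arrays. In the sorted channel the sums were 5670 to 11400 on cortex and 15700 to 23500 on striatum arrays. These are scanner units, and the striatum arrays were brighter in general, with a median sorted signal of 295.7 to 389.3 against 150.9 to 255.5 and a median reference signal of 132.7 to 181 against 108.4 to 130.2. For 10 of the 14 genes in each channel, every cortex array read below every striatum array. On cortex arrays 1 to 3, the sorted signal of 11, 14 and 14 genes was clear of background, and the reference signal of 12, 14 and 13. The source of this signal was not tested. For each regional difference below, the sorted channel alone was therefore compared too, an alternative chosen after the data were seen. Of the 117 genes above each other region, 91 had at least 50% of each difference in the sorted channel, and of the 151 below, 136.

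**Figure D3:**
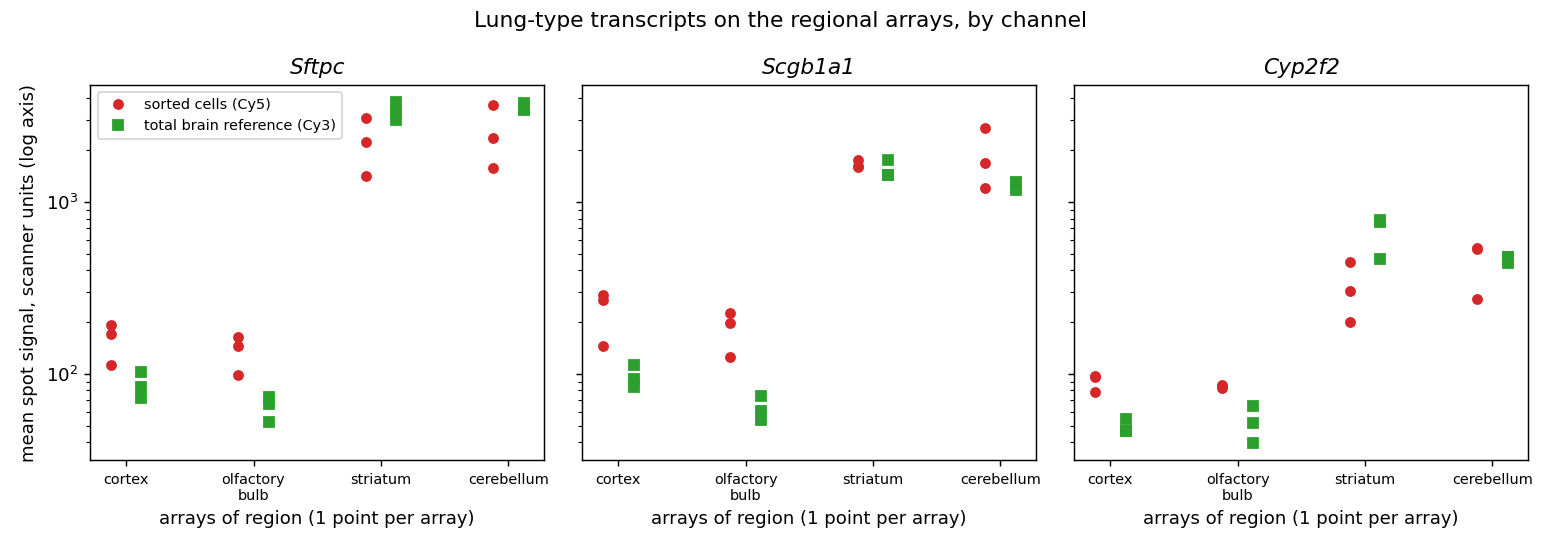
Mean spot signal in scanner units (log axis) of 3 lung-type transcripts on the regional arrays, with 1 point per array, not scaled for the brightness of the arrays, circles for sorted cells and squares for the reference. Sftpc reads 72.1 to 102 units in the reference channel of cortex arrays and 3000 to 3810 on striatum arrays.

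Below each other region were genes of radial glia and the Zic family. Fabp7, the brain lipid-binding protein of radial glia, was at -2.50, -2.67 and -2.76 in cortex and between -1.65 and -1.35 on the 9 other regional arrays. Its smallest difference from another region was -1.07 (largest adjusted p = 1.09e-06), and -1.01 in the sorted channel. Igf2 was lower than in each other region, with a smallest difference of -0.97, and Gja1 with one of -0.95. Zic1, a zinc finger factor of septum, olfactory bulb and cerebellum, was at -0.76, -0.72 and -0.74 in cortex, with means of 0.23 in striatum, 0.84 in olfactory bulb and 2.38 in cerebellum. Cortex was the only one of the 4 regions in which its mean lay below the reference. Zic2 was at -1.09 ± 0.08 and Zic5 at -1.81 ± 0.07, with smallest differences of -0.80 and -0.79. Ckb, brain creatine kinase, was at -0.85 by this measure, Ptn, the growth factor pleiotrophin, at -0.79, Apod at -0.72, Dbi at -0.71, Adnp2 at -0.67 and Ifrd1 at -0.66. None of the 12 had an array of cortex that overlapped the other regions, and each had at least 50% of each difference in the sorted channel.

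Above each other region the differences were smaller. Adra1a was at 1.18, 1.14 and 1.08 in cortex against means of 0.65 in striatum, 0.35 in olfactory bulb and 0.34 in cerebellum, and the sorted channel alone gave differences of 0.71, 0.99 and 1.01. Its highest array in another region was 0.70, so the groups did not overlap. Rab9b, an endosomal GTPase, was at 1.40 ± 0.07 with a smallest difference of 0.52, and 2610307P16Rik at 1.72 ± 0.09 with 0.56. Msrb2, a methionine sulfoxide reductase, was at 0.96 ± 0.09 with 0.53. Smarcc2, a chromatin remodelling subunit, was at 1.30 ± 0.10 with 0.49, and Tmem204 at 0.03 ± 0.07 with 0.49. Against the reference, another probe of Adra1a was at 0.22, another of Rab9b at -0.99 and another of Smarcc2 at -0.19. For each of these genes, 2 of 2 probes placed cortex above each other region, which was a condition for naming it. For 5 other genes less than 50% of at least 1 difference lay in the sorted channel: Aldh1a1 (0.69), a retinoic acid synthesising enzyme, Ecscr (0.55), Tnfrsf1a (0.51), Lce1h (0.48) and Prxl2a (0.47). For Aldh1a1 the sorted channel alone gave 0.23 against striatum and 0.02 against cerebellum. The sorted signal of Ecscr was not well above background on any cortex array, and in that channel its smallest difference was -0.23. The calls of Smarcc2 and Adnp2 were also lost on the sorted channel alone and without array 1.

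**Figure D4:**
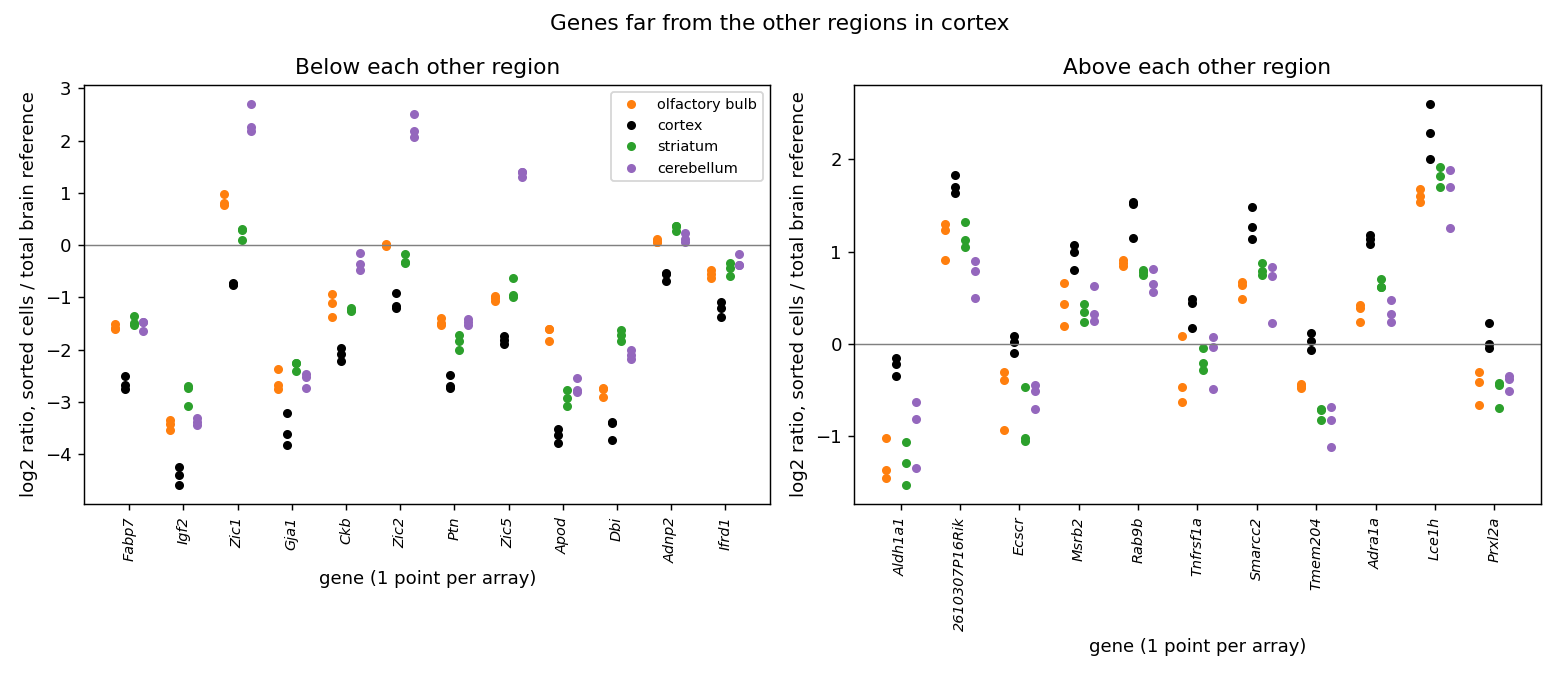
Log2 ratio to the reference of 12 genes far below (left) and 11 far above (right) each other region, with 1 point per array, black for cortex. The cortex points of Fabp7, -2.76 to -2.50, lie below all 9 others, and those of Zic1 lie below 0 while the other regions lie above.

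Against striatum alone, Sst, Npy, Lhx8 and Nkx2-1 were lower in cortex cells, while the medial ganglionic eminence list as a whole was mixed. Of its 13 genes, 3 were higher and 5 lower, with a median difference of 0.04. Over all genes tested, 8.92% were higher and 9.87% lower than in striatum, and the list counts here are to be read beside these shares. Nkx2-1 was at 0.05, -0.01 and -0.06 in cortex and at 1.03, 0.95 and 1.01 in striatum, a difference of -1.01 ± 0.14 (adjusted p = 0.000134). Sst differed by -1.24 ± 0.12, Npy by -1.12 ± 0.12 and Lhx8 by -1.06 ± 0.12, and for each the 3 cortex arrays lay below the 3 striatum arrays. The share of all genes without overlap between these regions was not counted. Of the striatal genes, 1 of 18 was higher and 3 lower (median -0.08), among them Isl1 at -0.84 ± 0.12 and Bcl11b, the CTIP2 factor, at -0.68 ± 0.09. Kcnc1 was higher in cortex by 0.56 ± 0.09 and Htr2a by 0.59 ± 0.12, and of 32 neuromodulator receptors 7 were higher and 0 lower. Markers of other cells moved in the same comparison: among the 20 genes of astrocytes and radial glia, 0 were higher and 10 lower (median -0.28), of 15 microglial genes 1 higher and 7 lower (median -0.22), and of 19 cell cycle genes 0 higher and 9 lower (median -0.25). Cldn5 differed by -1.41 ± 0.14. The part of these other cells in the differences was not tested.

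Against olfactory bulb, cortex cells were higher in most of the striatal genes called and lower in most of the bulb interneuron genes called. Of 18 striatal genes, 10 were higher in cortex and 1 lower (median 0.56), and of 14 bulb interneuron genes 2 were higher and 8 lower (median -0.80). Over all genes tested, 8.18% were higher and 8.25% lower than in bulb, and the list counts here are to be read beside these shares. Foxp1, a forkhead factor of striatal and cortical neurons, was at -0.05, -0.12 and -0.18 in cortex and -2.29, -2.53 and -2.63 in bulb, a difference of 2.37 ± 0.09 (adjusted p = 1.17e-11). Nkx2-1 differed by 1.86 ± 0.14, Nr2f1 by 1.36 ± 0.12, Sst by 0.89 ± 0.12 and Lhx6 by 0.88 ± 0.09. Calb2, which marks many bulb periglomerular cells, was at -2.28, -2.36 and -2.43 in cortex and -0.16, -0.30 and -0.20 in bulb, a difference of -2.13 ± 0.10. The 2 groups did not overlap for Foxp1, Nkx2-1, Sst, Lhx6, Nr2f1 or Calb2, though the share of all genes without overlap was not counted for this pair. Etv1 was lower, at -0.94 ± 0.09, and Adarb2 at -0.78 ± 0.13, a call lost with the mean of its 2 probes (-0.18). Of 22 immediate early genes, 9 were higher in cortex and 0 lower (median 0.32), with Jun higher by 1.01 ± 0.11. The other regions went the other way, with 1 higher and 6 lower in cortex against striatum (median -0.19). Against cerebellum 3 were higher and 8 lower (median -0.15), beside 10.8% and 15.3% of all genes. In the comparison with bulb, 1 of the 20 genes of astrocytes and radial glia was higher and 7 were lower (median -0.20). Of 15 microglial genes 4 were higher and 1 lower there. The part of these other cells in the differences from bulb was not tested. Of 9 forebrain GABAergic factors, 1 was higher and 3 lower. Gad1 and Gad2 were not called different between cortex and either forebrain region.

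**Figure D5:**
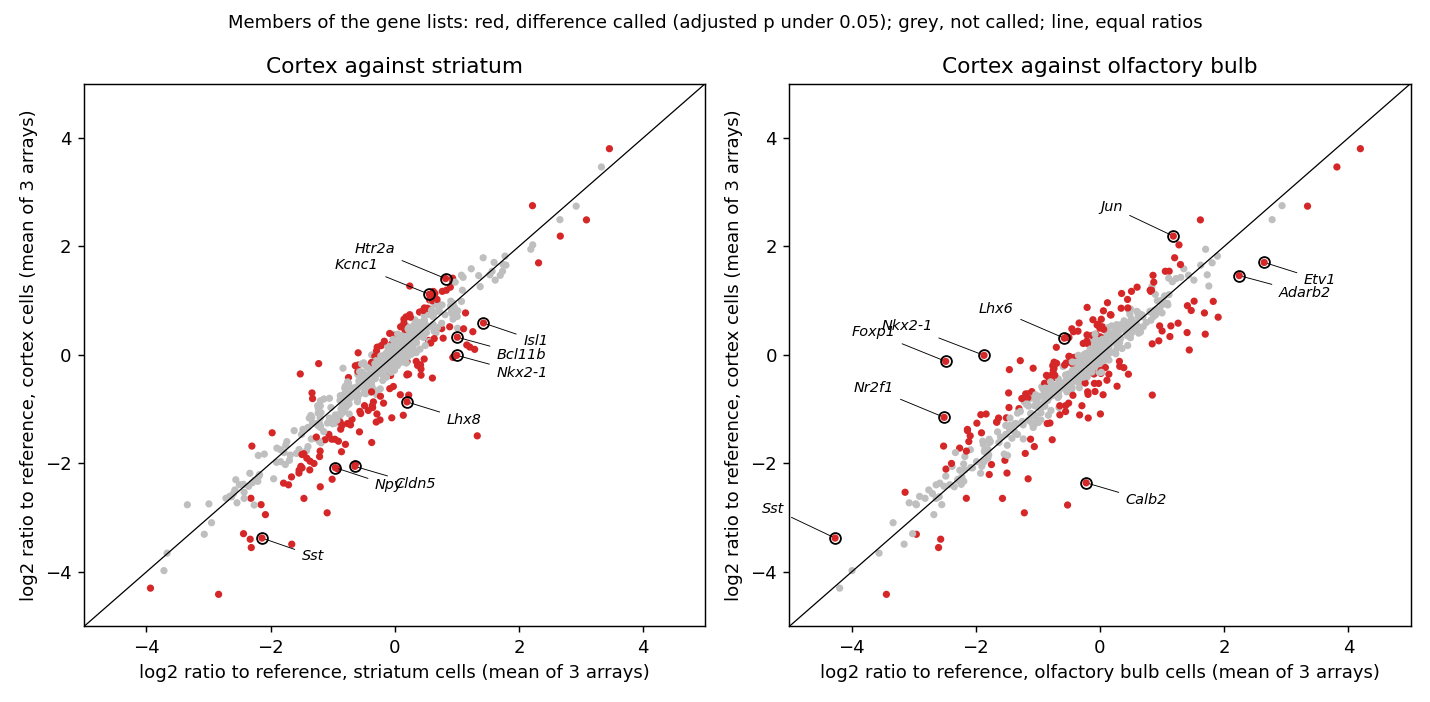
Mean log2 ratio to the reference in cortex cells (vertical axis) against striatum cells (left) and olfactory bulb cells (right) for every tested list member, red where the difference was called. Sst, Npy, Lhx8 and Nkx2-1 lie below the line of equal ratios in the left panel, and Foxp1 lies 2.37 above it in the right panel.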

How the data were processed

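Per the file headers, the deposited scanner files hold each spot's mean intensity and its median local background for both dyes, from Agilent Feature Extraction 8.1.1.1, and a log10 ratio that the authors obtained with the same software. The values of the deposited table lie within 0.005 of it. From the intensities, log2 ratios of sorted cells (Cy5) to reference (Cy3) were made in limma 3.58.1 (R 4.3.3), after normexp background correction with an offset of 50, which draws dim ratios towards 0, and loess within arrays. The labels call both dyes red, so the direction rests on the dye names. Each gene took its brightest probe; of 41174 probes, 9661 kept the array's own name. A gene was tested if its sorted signal was well above background on 3 or more arrays, or its reference signal on 8 or more, which removed 1393 of 28654. The 16 arrays were fitted with 5 group means (11 residual degrees of freedom) by lmFit and eBayes with Benjamini-Hochberg adjustment, and the fit was tested on simulated data. All 12 regional arrays were scanned on the same day, and the 4 whole-brain arrays on another. The headers name 2 protocols among the 12 regional arrays, and whether these follow region was not examined. For 8304 genes several probes were tested, of which 3934 had probes of both signs.

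Named genes are the 15 highest and 15 lowest ratios and the 12 farthest above and below the other regions among genes whose probes and arrays all show the direction, and members of the 34 lists; some are not reported here. Members and lists were chosen with earlier results of these data known. Same-numbered regional arrays deviated little together (median r 0.0276, from -0.113 to 0.23). Differently numbered ones had a median r of -0.017, from -0.232 to 0.243. Such weak correlations cannot show whether the numbers pair the samples. The number of arrays limits the precision.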

Additional observations from a re-analysis of the deposited data

Results flagged for a closer look

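Each value here is a difference between cortex cells and the cells of another region that passed limma's test (adjusted p under 0.05). In the genes below every other region, the smallest difference on the log2 scale was -1.07 for Fabp7, -0.97 for Igf2, -0.96 for Zic1, -0.95 for Gja1, -0.85 for Ckb, -0.80 for Zic2, -0.79 for Ptn and for Zic5, -0.72 for Apod, -0.71 for Dbi, -0.67 for Adnp2 and -0.66 for Ifrd1. In the genes above, it was 0.69 for Aldh1a1, 0.56 for 2610307P16Rik, 0.55 for Ecscr, 0.53 for Msrb2, 0.52 for Rab9b, 0.51 for Tnfrsf1a, 0.49 for Smarcc2, Tmem204 and Adra1a, 0.48 for Lce1h and 0.47 for Prxl2a.

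Cortex minus striatum was -1.24 for Sst, -1.12 for Npy, -1.06 for Lhx8, -1.01 for Nkx2-1, -0.84 for Isl1, -0.68 for Bcl11b and -1.41 for Cldn5, and 0.56 for Kcnc1 and 0.59 for Htr2a. Cortex minus olfactory bulb was 2.37 for Foxp1, 1.86 for Nkx2-1, 1.36 for Nr2f1, 1.01 for Jun, 0.89 for Sst and 0.88 for Lhx6, and -2.13 for Calb2, -0.94 for Etv1 and -0.78 for Adarb2. Each of these 18 differences kept its direction and its call on the sorted channel alone. The spread within cortex was not screened for single deviating arrays, since a group of 3 is too small for that.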

How the results depend on the processing

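Among genes called against the reference, none named here changed direction under the alternatives run; Nkx2-1, not called, moved to 0.29 and was called with median centring. At 2-fold or more, 2796 genes were higher with median centring in place of loess, and 4481 were higher and 3532 lower on the scanner's own log ratio. Scaling between arrays gave 226 genes above and 260 below each other region, and the scanner log ratio 227 below. Leaving out 1 cortex array gave 41 to 105 genes above and 83 to 149 below each other region, 2627 to 4805 different from striatum and 2747 to 3536 from olfactory bulb. With the replicate number as a block on the 12 regional arrays, 10570 genes were higher and 8766 lower than the reference. Whether the numbers pair the samples is not known. Under this block 160 and 199 genes stood above and below each other region, and 5900 and 5030 differed from striatum and bulb. No named gene changed its call. On the sorted channel alone, chosen after the data were seen, 157 genes stood above each other region and 137 below, of which 46 and 67 were among those called on ratios. There the smallest difference of Ecscr reversed to -0.23, and Aldh1a1, Tnfrsf1a, Smarcc2, Lce1h, Prxl2a and Adnp2 lost their calls. Of 152 results for named genes, calls were also lost by 7 on the scanner log ratio (Aldh1a1, 2610307P16Rik, Ecscr, Rab9b, Tnfrsf1a, Lce1h and Adnp2), 5 with median centring (Ecscr, Tnfrsf1a, Smarcc2, Lce1h and Prxl2a), 2 with scaling (Lce1h and Apod), 1 without background subtraction (Ecscr), 5 without array 1 (Gsx2, Ecscr, Smarcc2, Lce1h and Adnp2), 2 without array 2 (Ecscr and Tnfrsf1a), 5 without array 3 (Gsx2, Ecscr, Tnfrsf1a, Smarcc2 and Lce1h) and 2 with the mean of probes, Tnfrsf1a and Adarb2 against bulb (-0.18). That setting brought Abat against the reference to a called -0.47. The causes were not tested.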
